A study of Homo sapiens with 15 samples.

Results

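Interferons are secreted proteins by which a cell that senses viral nucleic acid warns its neighbours. Type I interferons bind the receptor pair IFNAR1 and IFNAR2, and interferon gamma binds IFNGR1 and IFNGR2. The receptors act through the kinases JAK1, JAK2 and TYK2 on STAT proteins, which with factors of the IRF family switch on the interferon-stimulated genes. LNCaP cells are known as a line with a weak response to interferon, and loss of JAK1 has been described in it. The expression of 43 genes of this system, from receptors to stimulated effectors, was examined by symbol in the expression table. Of these, 38 had a row among the 17272 genes of the table, and all 38 were tested. IRF9, OAS2, BST2, IFI27 and XAF1 had no row under these symbols and were not analysed here.

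LNCaP is an androgen-sensitive prostate cancer line, R1881 a synthetic androgen and enzalutamide an antagonist of the androgen receptor. All 15 libraries came from cells starved of androgen for 2 days and then treated for 22 h with 1 nM R1881, so no library without androgen was compared. In 10 libraries R1881 was given with DMSO (the solvent) and in 5 libraries with 2 µM enzalutamide, and none of the cells was labelled as treated with interferon. The methods of the study give the numbers of libraries of the treatments the other way round, and the labels were followed here. Library numbers in the labels run from 51 to 55 and from 71 to 75 for R1881 and from 81 to 85 for R1881 + enzalutamide, with no meaning given, so that a difference between runs of numbers and the treatment cannot be told apart. The study calls the libraries biological replicates but does not say that each came from its own culture, so p-values measure the spread between these libraries.

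Expression is given as counts per 1000000 reads (CPM) as deposited, in which the library totals are not exactly 1000000. Each library held 15830745 to 25416052 reads on genes. The test was that of limma, run on log2(CPM + 0.5) for 17046 genes, and a gene is called higher or lower at a Benjamini-Hochberg adjusted p under 0.05 over all of them. On this scale, fold changes of genes with few reads come out too small. All 4 androgen-induced control genes were lower with enzalutamide, their summed level lying between 4120 and 4700 CPM with R1881 and between 253 and 285 CPM with R1881 + enzalutamide. All 8 luminal prostate markers had rows, and none of the 8 leukocyte markers had one. Of 6 fibroblast markers, DCN, COL1A2 and PDGFRB had no row, and COL1A1, COL3A1 and LUM were higher with enzalutamide, with a summed level of 6.36 to 10.5 CPM and of 21.2 to 26.7 CPM. The part of this in the results below was not tested. In bulk RNA, fewer cells expressing a gene and less of its RNA per cell cannot be told apart.

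Interferon-stimulated genes are often read from a promoter element, the interferon-stimulated response element (ISRE), to which STAT and IRF proteins bind, while the gamma-activated sequence (GAS) binds STAT dimers. To show these letters in the genes that the results turn on, RefSeq promoters (GRCh38.p14, 250 bases before to 50 bases after the gene start) were searched on both strands for the ISRE core (GAAA, any 2 bases, GAAA) and for the GAS letters TTCNNNGAA. A promoter was matched for 29 of the 38 genes, and not for IRF2, IRF3, IRF7, IFNAR2, IFIT2, OASL, IFITM2, USP18 and PML. The ISRE core was found in 15 of the 29 (51.7%), against 3.57% of all 35116 promoters, and the GAS letters in 4 of 29 (13.8%), against 7.66% of all. Because the genes were chosen as interferon genes, these shares describe the list and are not a result of the expression data. A single GAS match, in the promoter of IFITM1, overlapped an ISRE core match. Part of each promoter is given 5′ to 3′ on the strand of the gene, with the matches in capitals, for 3 IFIT genes and IRF1, which were higher with enzalutamide, for OAS3, which was lower, and for ISG15, which was not called. A further ISRE core match of IFIT5 starts at position -4, crosses the gene start and is not shown, so that its first letters stand in lower case. The region is chr10:89392467-89392569 for IFIT1, chr10:89327801-89327924 for IFIT3, chr10:89414483-89414567 for IFIT5, chr12:112938291-112938473 for OAS3 and chr1:1013344-1013439 for ISG15, all on the plus strand, and chr5:132490849-132490937 on the minus strand for IRF1.
IFIT1: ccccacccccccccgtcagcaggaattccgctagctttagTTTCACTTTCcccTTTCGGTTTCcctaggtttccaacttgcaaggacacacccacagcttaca
IFIT3: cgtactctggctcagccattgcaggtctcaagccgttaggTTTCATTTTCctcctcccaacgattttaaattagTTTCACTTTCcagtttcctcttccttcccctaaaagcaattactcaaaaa
IFIT5: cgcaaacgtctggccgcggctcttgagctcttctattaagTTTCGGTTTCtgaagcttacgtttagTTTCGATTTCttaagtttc
OAS3: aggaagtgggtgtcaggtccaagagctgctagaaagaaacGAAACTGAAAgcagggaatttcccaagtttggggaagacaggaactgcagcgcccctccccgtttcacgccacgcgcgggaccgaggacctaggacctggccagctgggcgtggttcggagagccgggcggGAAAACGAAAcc
ISG15: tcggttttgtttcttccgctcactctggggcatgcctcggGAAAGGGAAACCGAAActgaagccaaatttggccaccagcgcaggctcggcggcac
IRF1: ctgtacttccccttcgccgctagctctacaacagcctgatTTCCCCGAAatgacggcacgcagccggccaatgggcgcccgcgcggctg
The ISRE core was present in 10 of the 17 genes called higher with a promoter, in 1 of the 6 called lower and in 4 of the 6 not called. The promoters of IFIT1, IFIT3 and IFIT5 and that of OAS3 thus carry the same element, on opposite strands, while the genes were called in opposite directions. With only 1 gene called lower carrying the ISRE core, these matches cannot show whether the strand goes with the call. ISG20, MX1, IFITM1, IFITM3, IFI6 and LGALS3BP, called higher, carry it on the same strand as OAS3, and IFIH1, also called higher, on both. Of the genes not called, EIF2AK2, PLSCR1 and ISG15 carry it on the same strand as OAS3 and IFI44 on the other.

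With enzalutamide the interferon genes did not move as a block. IRF1, the IFIT genes, MX1 and UBE2L6 were higher, and USP18, OAS1 and OAS3 were lower. Of the 38 genes, 18 were called higher and 9 lower, or 71.1% called, against 62.5% of all genes tested. The share called higher was 47.4% against 29.8% of all genes, and the share called lower 23.7% against 32.7%. A change of at least 1.5-fold was found for 7 of the 38 (18.4%), 5 higher and 2 lower, against 18.6% of all genes (9.06% higher, 9.55% lower). The treatments did not overlap for 12 genes (31.6%), 8 higher and 4 lower, against 37.2% of all (17.1% higher, 20.1% lower). The median log2 fold change was 0.13 for the 38 genes and -0.01 for all genes tested, and the median size of the change regardless of direction was 0.26 and 0.24. With library totals set to 1000000 in place of the scaling of the authors, 19 genes were called higher and 5 lower, and the share of calls that were higher went from 66.7% to 79.2%, while that share over all genes went from 47.7% to 60.8%.

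**Figure D1:**
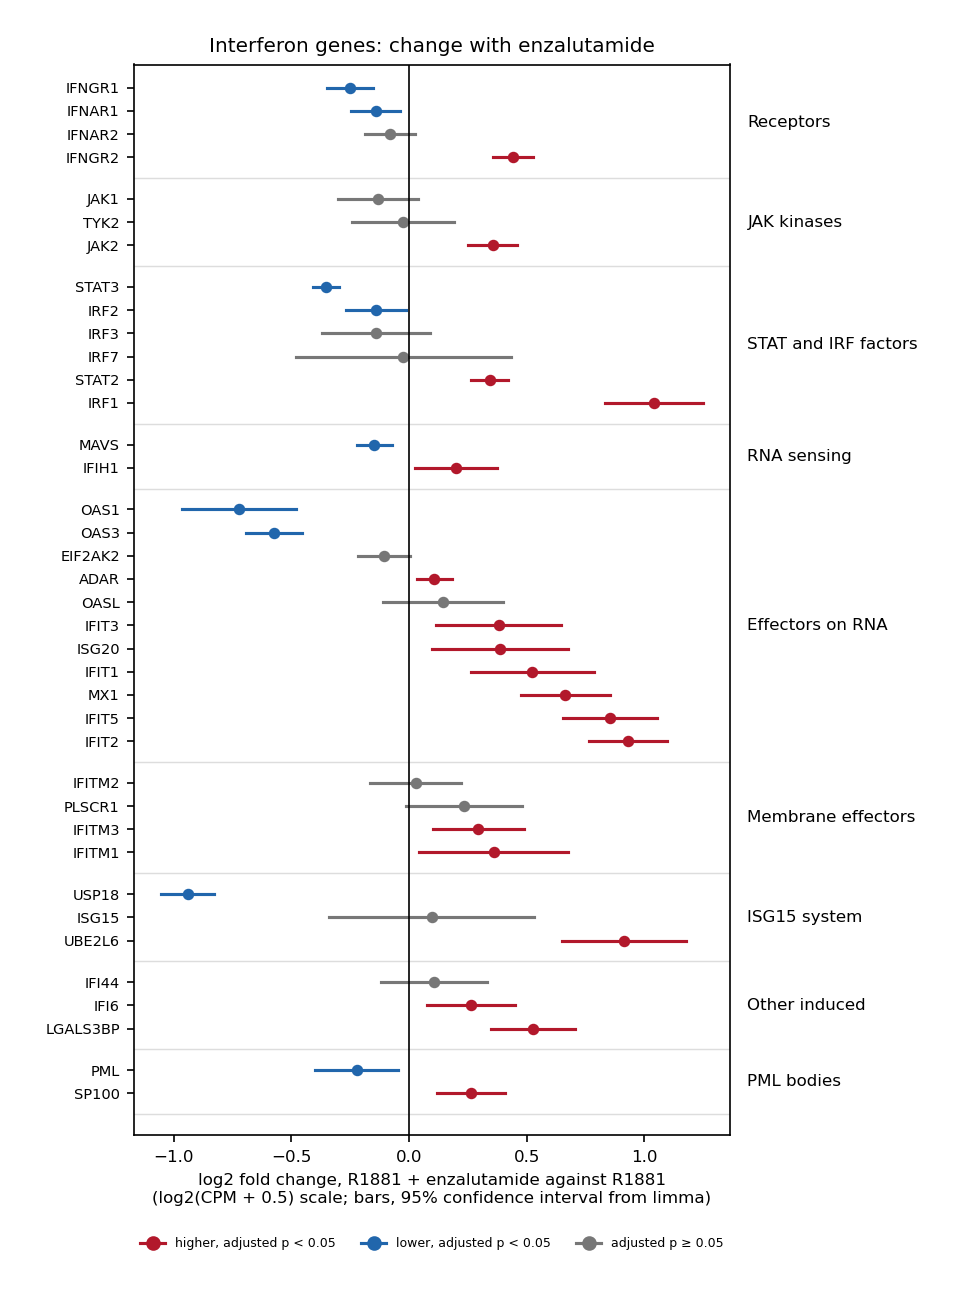
Log2 fold change of the 38 interferon genes between R1881 + enzalutamide (n = 5) and R1881 (n = 10) with 95% confidence intervals from limma, grouped by role. IRF1 lies highest at 1.04 and USP18 lowest at -0.94, and within most roles genes lie on both sides of 0.

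Receptor subunits were all expressed, and they changed unequally. IFNGR2, the signalling subunit of the interferon gamma receptor, ranged from 44.7 to 52.0 CPM with R1881 (median 49.0). With R1881 + enzalutamide, replicates 1 to 5 held 66.6, 63.7, 67.7, 69.3 and 64.1 CPM. All of these lay above every R1881 library, a log2 fold change of 0.44 (SE 0.041, limma adjusted p = 8.32e-09). IFNGR1, the subunit that binds interferon gamma, fell from 45.2 ± 2.24 CPM (mean ± SD of 10 libraries) to 37.9 ± 2.74 CPM (of 5 libraries), a log2 fold change of -0.25 (adjusted p = 9.79e-05 in limma), with 1 enzalutamide library, replicate 1 at 41.4 CPM, just inside the R1881 range. The type I subunit IFNAR1 fell from 121 ± 8.21 to 109 ± 6.82 CPM, a log2 fold change of -0.14 (adjusted p = 0.0186 in limma), with overlap between the treatments. This call was lost with library totals set to 1000000 (adjusted p = 0.376), with edgeR (adjusted p = 0.067), against the R1881 libraries 71 to 75 alone (adjusted p = 0.215 in limma) and without R1881 + enzalutamide replicate 2 (adjusted p = 0.0748 in limma). IFNAR2 was at 16.5 ± 0.894 and 15.6 ± 0.650 CPM and was not called (log2 fold change -0.08, 95% interval -0.19 to 0.02). Its gene shares exons with the read-through gene IFNAR2-IL10RB on the same strand, so its reads and those of IL10RB could be split between them.

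JAK1 was present at a low level. It ranged from 5.89 to 8.80 CPM with R1881 (median 7.28), and the enzalutamide libraries held 6.14, 5.67, 6.41, 7.23 and 6.98 CPM. The treatments overlapped and JAK1 was not called (log2 fold change -0.13, 95% interval -0.30 to 0.04). At 106 to 178 reads per library, JAK1 was detected in every library. Per kb of the canonical transcript, the level with R1881 was 1.41 CPM for JAK1, 5.82 CPM for JAK2 and 7.11 CPM for TYK2, and JAK1 was also the lowest per kb of all annotated exons, where JAK2 (5.17 CPM) stood above TYK2 (3.54 CPM). JAK2, a kinase of the interferon gamma receptor and of several cytokine receptors, rose from between 35.8 and 45.4 CPM (median 41.3) to 55.0, 47.8, 51.8, 54.4 and 53.0 CPM. The treatments did not overlap, and the log2 fold change was 0.35 (SE 0.049, limma adjusted p = 2.46e-06). TYK2, which pairs with JAK1 at the type I receptor, was at 30.2 ± 5.27 and 29.5 ± 3.99 CPM (log2 fold change -0.02, 95% interval -0.24 to 0.19).

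Of the factors downstream, IRF1 rose most. IRF1, itself an early interferon target, ranged from 1.90 to 3.21 CPM with R1881 (median 2.54) and held 5.73, 6.23, 5.55, 5.52 and 5.29 CPM with R1881 + enzalutamide. The lowest of these was above every R1881 library, and the log2 fold change of 1.04 (SE 0.099, limma adjusted p = 1.08e-08) was a 2.06-fold change on this scale. IRF1 lies on chromosome 5 from 132440440 to 132508719 of GRCh38, minus strand, and 2805 bases of its annotated exons overlap those of IRF1-AS1 on the other strand. The sources used here do not give whether strand was used in counting. The promoter of IRF1 carries the GAS match printed above, 124 bases before the RefSeq gene start, which lies inside the span given here.

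STAT2 and STAT3 moved in opposite directions, and for neither did the treatments overlap. STAT2, a subunit with IRF9 of the factor that binds the ISRE, ranged from 71.9 to 81.9 CPM with R1881 (median 77.2) and held 107, 95.7, 95.1, 93.1 and 96.6 CPM with R1881 + enzalutamide (log2 fold change 0.34, SE 0.039, limma adjusted p = 1.32e-07). STAT3, the main factor of interleukin-6 signalling, ranged from 258 to 273 CPM (median 263) and held 212, 208, 199, 212 and 205 CPM (log2 fold change -0.35, SE 0.027, limma adjusted p = 2.81e-10). STAT3 had the smallest spread of the 38 genes, with a coefficient of variation of 1.92% with R1881 and 2.70% with R1881 + enzalutamide. The other IRF genes changed little. IRF2, an antagonist of IRF1 at some promoters, was at 14.1 ± 1.06 CPM (SD) in the 10 R1881 libraries and 12.7 ± 0.784 CPM (SD) in the 5 enzalutamide libraries. Its adjusted p of 0.0498 from limma lay at the threshold, and 18 of 29 alternative settings did not call it, 11 of them with 1 library left out. IRF3, which is activated by RNA and DNA sensing, was at 28.1 ± 5.15 and 25.3 ± 3.94 CPM (log2 fold change -0.14, 95% interval -0.37 to 0.09). IRF7, which amplifies the type I response, was at 3.63 ± 1.59 and 3.49 ± 1.21 CPM (log2 fold change -0.02, 95% interval -0.48 to 0.43).

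Of the RNA sensing genes, IFIH1 encodes the double-stranded RNA sensor MDA5 and MAVS its mitochondrial adaptor. IFIH1 was at 4.85 ± 0.504 CPM (SD) in the 10 R1881 libraries and 5.66 ± 0.623 CPM (SD) in the 5 enzalutamide libraries. It was called higher (log2 fold change 0.20, adjusted p = 0.0425 in limma), but not in 13 of 29 alternative settings, 9 of them with 1 library left out. MAVS was called lower, from 229 ± 9.27 to 207 ± 9.04 CPM (log2 fold change -0.15, adjusted p = 0.00106 in limma), and this call was lost with library totals set to 1000000 (adjusted p = 0.175).

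The 4 IFIT genes, whose proteins bind foreign RNA 5′ ends or block its translation, were all called higher. They lie in a cluster of 137.9 kb on chromosome 10, from 89283694 to 89421605. IFIT2 ranged from 2.66 to 3.72 CPM with R1881 (median 3.17) and held 6.75, 5.72, 7.32, 6.33 and 6.67 CPM with R1881 + enzalutamide, a log2 fold change of 0.93 (SE 0.080, limma adjusted p = 2.07e-09). IFIT5 ranged from 3.82 to 6.17 CPM (median 5.09) and held 10.6, 8.37, 8.32, 9.48 and 9.25 CPM, a log2 fold change of 0.85 (SE 0.095, limma adjusted p = 1.08e-07). For these genes every enzalutamide library lay above every R1881 library. IFIT1 ranged from 1.37 to 2.83 CPM (median 2.31) and held 2.79, 3.77, 3.91, 3.19 and 2.98 CPM, so that 1 enzalutamide library lay below the highest R1881 library (log2 fold change 0.52, adjusted p = 0.00112 in limma). IFIT3 was lowest, at 0.677 to 1.45 CPM (median 0.931) and at 1.40, 1.86, 1.23, 1.39 and 1.18 CPM, with 10 to 40 reads per library. The treatments overlapped for IFIT3, and its log2 fold change of 0.38 (adjusted p = 0.0133 in limma) was no longer called without R1881 + enzalutamide replicate 2 (0.30, adjusted p = 0.0559 in limma).

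**Figure D2:**
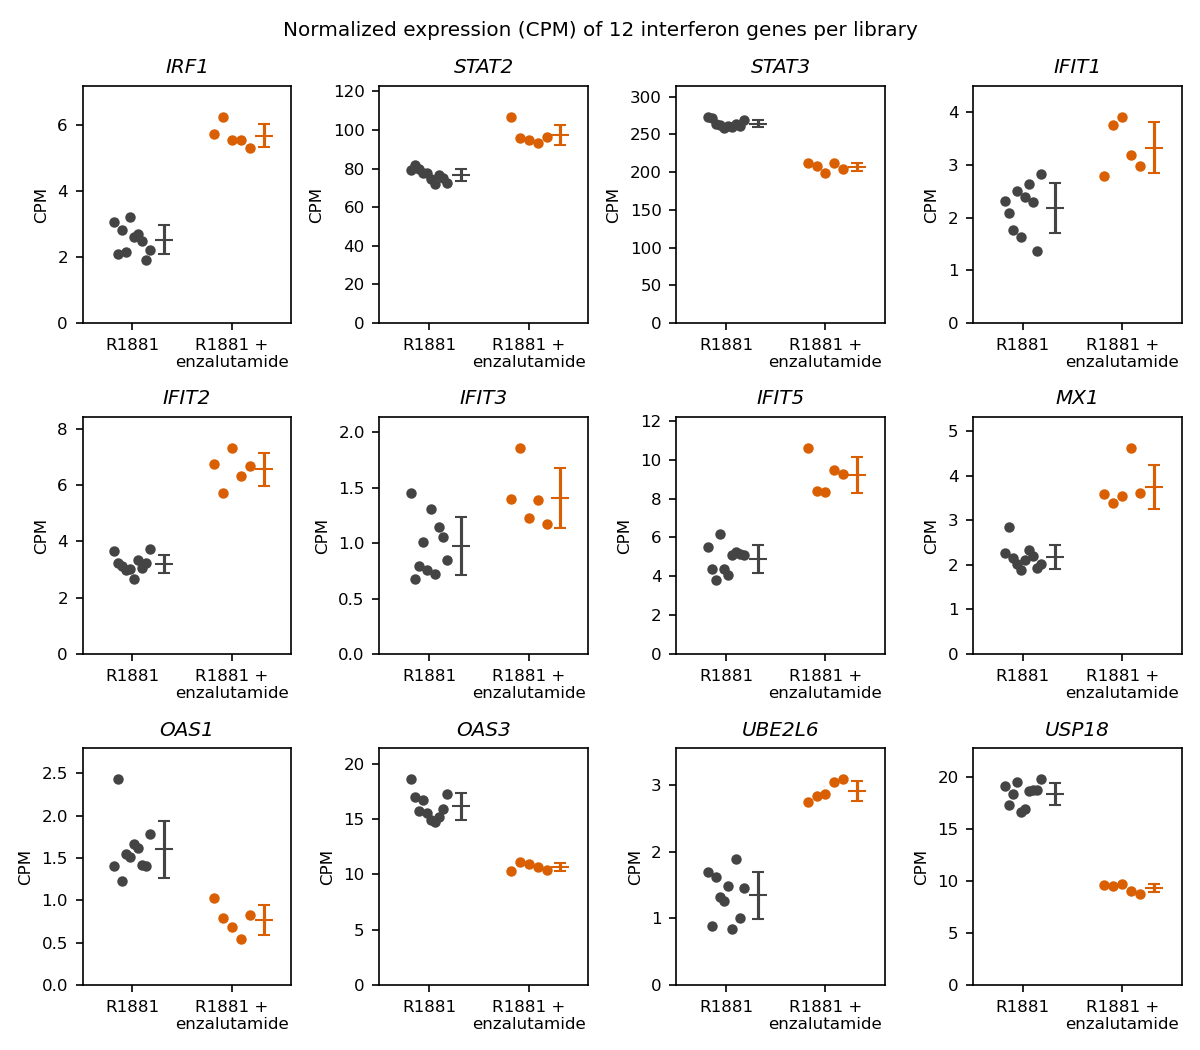
CPM of 12 interferon genes in each library (points, replicates from left to right; dark grey R1881, orange R1881 + enzalutamide), with the mean and SD beside them. The treatments do not overlap for IRF1, STAT2, STAT3, IFIT2, IFIT5, MX1, OAS1, OAS3, UBE2L6 and USP18, and overlap for IFIT1 and IFIT3.

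The OAS genes encode synthases that make the messenger activating RNase L, and those on the shared locus fell. OAS1 and OAS3 lie within 70.6 kb on chromosome 12, from 112905856 to 112976460. OAS3 ranged from 14.7 to 18.6 CPM with R1881 (median 15.8) and held 10.3, 11.2, 10.9, 10.6 and 10.4 CPM with R1881 + enzalutamide, a log2 fold change of -0.57 (SE 0.057, limma adjusted p = 2.30e-08). OAS1 ranged from 1.23 to 2.44 CPM (median 1.53) and held 1.02, 0.791, 0.682, 0.539 and 0.823 CPM, with 12 to 38 reads per library (log2 fold change -0.72, SE 0.116, limma adjusted p = 1.68e-05). Both genes were lower in every enzalutamide library than in any R1881 library. OASL, a relative without synthase activity farther along the chromosome, was at 1.53 ± 0.277 and 1.76 ± 0.403 CPM and was not called (log2 fold change 0.14, 95% interval -0.11 to 0.40). Without R1881 + enzalutamide replicate 1, its lowest library at 1.07 CPM, OASL was called higher (0.27, adjusted p = 0.0451 in limma).

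Among the other effectors that act on RNA, MX1, a GTPase that traps viral nucleocapsids, ranged from 1.89 to 2.84 CPM with R1881 (median 2.13). It held 3.58, 3.40, 3.55, 4.63 and 3.61 CPM with R1881 + enzalutamide, all above the R1881 libraries (log2 fold change 0.66, SE 0.090, limma adjusted p = 1.84e-06). On chromosome 21, 562 bases of annotated MX1 exons overlap exons of TMPRSS2 on the other strand, and TMPRSS2 moved the other way, from between 790 and 918 CPM to between 67.2 and 73.6 CPM. The part of this overlap in the MX1 counts was not tested. ISG20, an RNA exonuclease, was called higher, from 3.08 ± 0.840 to 4.11 ± 0.623 CPM (log2 fold change 0.39, adjusted p = 0.0196 in limma), and lost its call against the R1881 libraries 71 to 75 alone (0.21, adjusted p = 0.247) and without R1881 + enzalutamide replicate 2 (adjusted p = 0.0632) or replicate 3 (adjusted p = 0.0546). It was also lost over replicates 1 to 5 of both treatments, with the replicate block (adjusted p = 0.0627) and without it (adjusted p = 0.0683). ADAR, which edits adenosine to inosine in double-stranded RNA, was among the highest of the 38 genes and rose from 363 ± 14.9 to 391 ± 19.1 CPM (log2 fold change 0.11, adjusted p = 0.0122 in limma). Without R1881 + enzalutamide replicate 1, ADAR was not called (adjusted p = 0.0548 in limma), nor was it over replicates 1 to 5 of both treatments with the replicate block (adjusted p = 0.134) or without it (adjusted p = 0.105). The gene count cannot separate its interferon-induced isoform from the constitutive one. EIF2AK2, the kinase PKR that stops translation on double-stranded RNA, was at 73.1 ± 5.77 and 67.7 ± 3.12 CPM and was not called (log2 fold change -0.11, adjusted p = 0.0841 in limma). It was called lower against the R1881 libraries 51 to 55 alone (adjusted p = 0.0034) and without R1881 replicate 5 (adjusted p = 0.0341) or replicate 6 (adjusted p = 0.0172).

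The IFITM proteins block the fusion of viruses with membranes, and their genes lie within 25.8 kb on chromosome 11. IFITM3 was at 36.9 ± 4.98 CPM (SD) in the 10 R1881 libraries and 45.6 ± 7.64 CPM (SD) in the 5 enzalutamide libraries and was called higher (log2 fold change 0.29, adjusted p = 0.00874 in limma), but not against the R1881 libraries 71 to 75 alone (0.23, adjusted p = 0.109). IFITM2 was at 16.2 ± 2.27 and 16.5 ± 1.96 CPM (log2 fold change 0.03, 95% interval -0.16 to 0.22). IFITM1 was near the limit of detection, at 0.188 to 0.794 CPM and 0.512 to 1.02 CPM, with 4 to 22 reads per library, and its call (adjusted p = 0.0451 in limma) was lost in 14 of 28 alternative settings, 10 of them with 1 library left out. These genes are close copies of each other, so reads may have been split between them and their separate values are uncertain. PLSCR1, a phospholipid scramblase, was at 0.606 ± 0.180 and 0.788 ± 0.0751 CPM and was not called (log2 fold change 0.23, adjusted p = 0.0911 in limma), but was called higher with library totals set to 1000000 (adjusted p = 0.0361), with edgeR (adjusted p = 0.0463), against the R1881 libraries 51 to 55 alone (adjusted p = 0.0377) and without R1881 replicate 2 (adjusted p = 0.0451) or replicate 5 (adjusted p = 0.0462).

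The genes of the ISG15 system moved apart. ISG15 is a ubiquitin-like protein, UBE2L6 the enzyme that hands it to its ligase, and USP18 the protease that removes it and a brake on the type I receptor. UBE2L6 ranged from 0.838 to 1.90 CPM with R1881 (median 1.39) and held 2.75, 2.84, 2.87, 3.05 and 3.10 CPM with R1881 + enzalutamide (log2 fold change 0.91, SE 0.127, limma adjusted p = 2.49e-06). USP18 ranged from 16.6 to 19.8 CPM (median 18.7) and held 9.64, 9.49, 9.73, 9.03 and 8.78 CPM (log2 fold change -0.94, SE 0.053, limma adjusted p = 2.33e-12). UBE2L6 was higher and USP18 lower in every enzalutamide library than in any R1881 library, and USP18 had the lowest adjusted p of the 38 genes. USP18 has a close copy on the same chromosome, the pseudogene USP41, which was at 10.0 ± 1.12 CPM with R1881 and fell to 4.75 ± 0.700 CPM (adjusted p = 4.84e-09 in limma). Reads of USP18 and USP41 may have been split between them, so the values of each are uncertain. ISG15 ranged from 3.01 to 12.6 CPM (median 5.57) and held 4.42, 8.70, 6.10, 5.61 and 7.25 CPM. The treatments overlapped widely and ISG15 was not called (log2 fold change 0.10, 95% interval -0.34 to 0.53).

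LGALS3BP, a secreted glycoprotein induced by interferons, rose from 26.0 ± 3.60 CPM (mean ± SD of 10 libraries) to 37.7 ± 4.64 CPM (of 5 libraries), a log2 fold change of 0.53 (adjusted p = 1.66e-05 in limma). IFI6, a mitochondrial and endoplasmic reticulum protein of the antiviral response, rose from 5.77 ± 0.705 to 7.03 ± 0.843 CPM (log2 fold change 0.26, adjusted p = 0.0141 in limma). Without R1881 + enzalutamide replicate 5, IFI6 was not called (0.22, adjusted p = 0.0582 in limma), nor over replicates 1 to 5 of both treatments without a block (adjusted p = 0.0512). IFI44 was at 3.58 ± 0.548 and 3.90 ± 0.730 CPM and was not called (log2 fold change 0.11, 95% interval -0.12 to 0.33). The genes of the PML nuclear bodies, which both respond to interferon, were called in opposite directions. SP100 rose from 17.8 ± 1.94 to 21.4 ± 0.944 CPM (log2 fold change 0.26, adjusted p = 0.00246 in limma). PML fell from 13.0 ± 1.57 to 11.1 ± 1.10 CPM (log2 fold change -0.22, adjusted p = 0.0282 in limma), a call that was lost with edgeR (adjusted p = 0.0798), against the R1881 libraries 51 to 55 alone (adjusted p = 0.326), with library totals set to 1000000 (adjusted p = 0.202) and without R1881 + enzalutamide replicate 1 (adjusted p = 0.114) or replicate 4 (adjusted p = 0.052).

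In level, the interferon-stimulated effectors were mostly low and the signalling genes were not. With R1881, 14 of the 21 stimulated genes had a mean under 10 CPM, against 4 of the 17 signalling, sensing and PML body genes, and 39.6% of all genes tested. The median was 3.58 CPM for the stimulated genes, 28.1 CPM for the others and 18.3 CPM for all genes tested. Per kb of the canonical transcript, the highest levels with R1881 were 60.5 CPM for IFITM3, 54.9 CPM for ADAR and 53.8 CPM for STAT3. The ranges over the R1881 libraries of these genes overlapped each other. At the other end stood PLSCR1 with 0.307, IFIT3 with 0.409 and OASL with 0.469 CPM per kb, whose ranges over libraries also overlapped. The order depended on the length used. Per kb of all annotated exons, the highest levels with R1881 were 29.7 CPM for ADAR, 23.6 CPM for STAT3 and 19.5 CPM for MAVS, with IFITM3 at 13.0 CPM, and the lowest were 0.121 CPM for MX1 and 0.123 CPM for OAS1. Per kb of the canonical transcript, IRF1 went from 0.710 to 1.59 CPM per kb and USP18 from 9.90 to 5.02 CPM per kb.

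**Figure D3:**
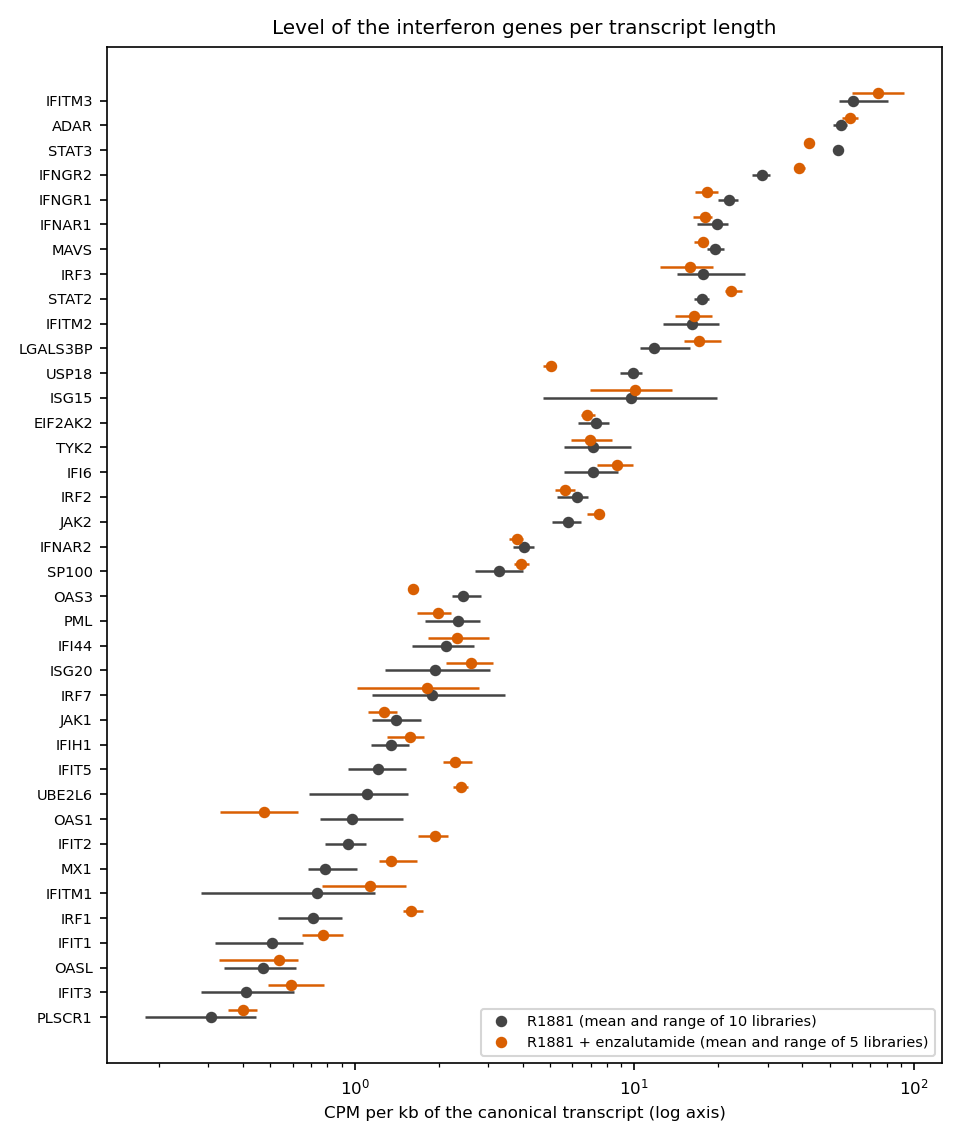
Level of the 38 interferon genes as CPM per kb of the canonical transcript on a log axis (points, mean; lines, range over the 10 R1881 and 5 R1881 + enzalutamide libraries). The genes span 0.307 to 60.5 CPM per kb with R1881, and USP18, OAS3 and OAS1 shift left and IRF1, IFIT2 and UBE2L6 right with enzalutamide.

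The spread between libraries of a treatment was uneven, and in some libraries the deviations followed the GC content of the genes. IRF7, ISG15, IFITM1 and TYK2 varied by 43.8%, 42.2%, 43.5% and 17.5% (coefficient of variation with R1881), and for IRF7, ISG15 and TYK2 the highest library was R1881 replicate 6. Genes of lower GC content also varied, with 29.7% for PLSCR1, 27.1% for IFIT3 and 20.8% for OAS1. For the 7 genes with a GC content of at least 58% (TYK2, IRF3, IRF7, IFITM3, ISG15, LGALS3BP and PML), the median deviation from the mean of the treatment on the log2 scale was 0.47 in R1881 replicate 6 and 0.26 in R1881 replicate 5. It was -0.32 in R1881 replicate 10, 0.28 in R1881 + enzalutamide replicate 2 and -0.29 in R1881 + enzalutamide replicate 1. Over the 38 genes, Spearman's rho between GC content and deviation was 0.72 in R1881 replicate 6 and -0.69 in R1881 replicate 10, but -0.09, -0.11 and -0.06 in R1881 replicates 3, 4 and 8, as a description across genes that share a library. After a GC correction within each library, the standard error of the log2 fold change went from 0.21 to 0.13 for ISG15, from 0.22 to 0.12 for IRF7 and from 0.10 to 0.05 for TYK2, and rose from 0.127 to 0.138 for IFIT3 and from 0.118 to 0.131 for PLSCR1. ISG15, IRF7 and TYK2 were still not called after it (adjusted p = 0.378, 0.934 and 0.787 in limma), nor was PLSCR1 (adjusted p = 0.184 in limma). IFIT3 stayed called higher (log2 fold change 0.37, adjusted p = 0.0186 in limma). EIF2AK2 was then called lower (log2 fold change -0.11, adjusted p = 0.00199 in limma).

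**Figure D4:**
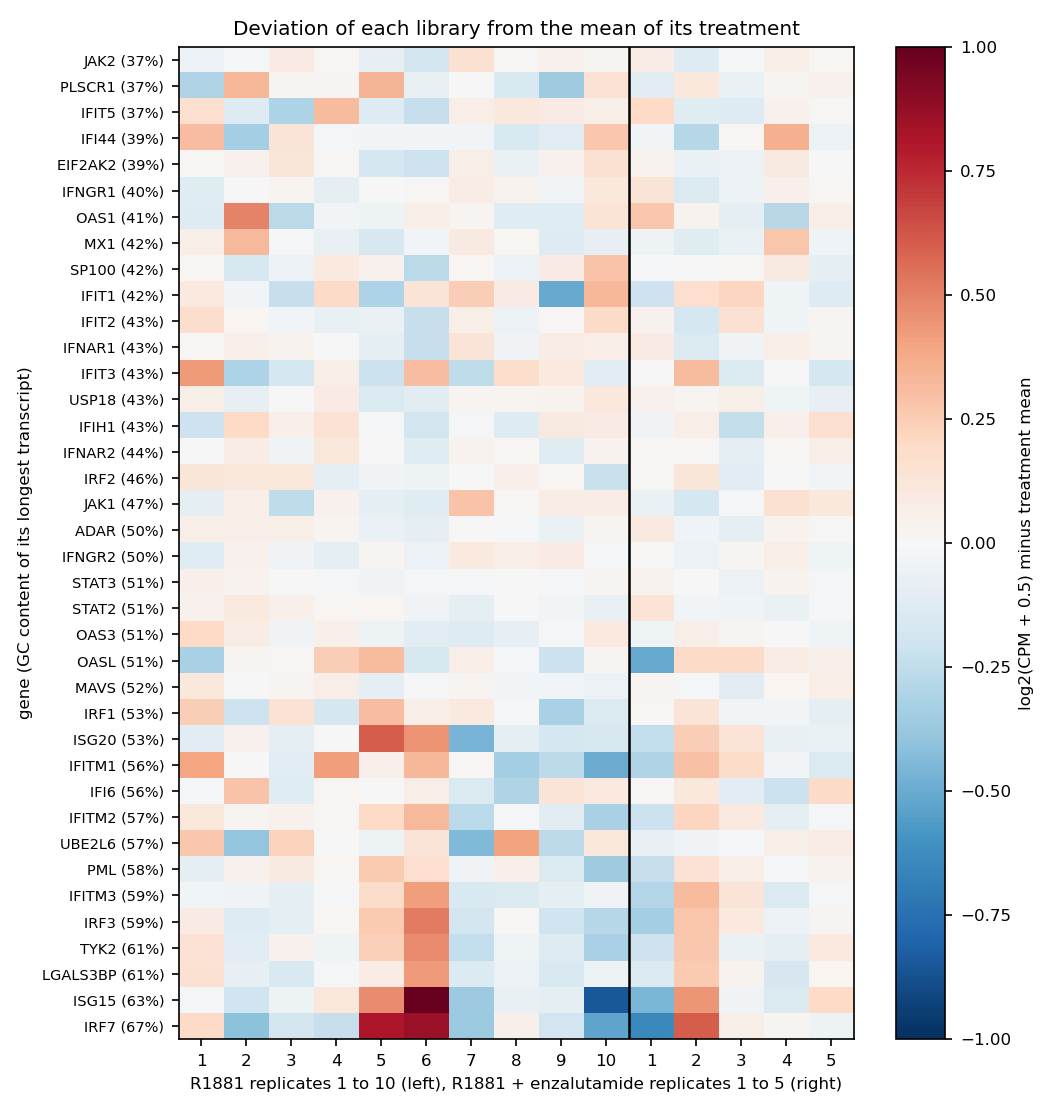
Deviation of each library from the mean of its treatment (colour, log2(CPM + 0.5)) for the 38 interferon genes, ordered by the GC content of the longest transcript. In the GC-rich rows at the bottom, R1881 replicates 5 and 6 and R1881 + enzalutamide replicate 2 are high, and R1881 replicate 10 and R1881 + enzalutamide replicate 1 are low.

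Between the R1881 libraries 71 to 75 and 51 to 55, which had the same treatment, none of the 38 genes was called by limma (lowest adjusted p = 0.0923), by edgeR or by DESeq2, against 3.17% of all genes by limma. At an unadjusted p under 0.05 from limma, 9 of the 38 differed (23.9% of all genes did). The median size of the difference was 0.11 on the log2 scale, beside 0.26 between the treatments. Over all genes tested these values were 0.097 and 0.24. Among the 38 genes the largest difference between the R1881 runs of numbers was 0.48, for ISG15.

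Beyond these genes, a list of 97 further genes of the interferon pathway was examined, of which 62 had a row and 61 were tested. None of the 10 interferon ligands on the list had a row. Of the 61 genes, 30 were called higher and 14 lower (72.1%, against 62.5% of all genes, of which 29.8% were higher and 32.7% lower). A change of at least 1.5-fold was found for 13 of the higher and 5 of the lower (29.5% of the 61, against 18.6% of all genes). Between the R1881 libraries 71 to 75 and 51 to 55, only PIAS1 of the 61 was called by limma (3.17% of all genes). The median log2 fold change was 0.16. RIGI, the sensor of short viral RNA, rose from 6.50 ± 0.768 CPM (mean ± SD of 10 libraries) to 13.0 ± 1.01 CPM (of 5 libraries), a log2 fold change of 0.96 (adjusted p = 2.17e-09 in limma). TLR3, the endosomal double-stranded RNA receptor, rose from 1.63 ± 0.528 to 3.87 ± 0.454 CPM (log2 fold change 1.07), NLRC5, an activator of class I antigen presentation, from 0.892 ± 0.119 to 2.24 ± 0.244 CPM (0.98), and GBP2, a guanylate-binding protein, from 3.08 ± 0.577 to 6.51 ± 0.895 CPM (0.98). For each of these genes the enzalutamide libraries lay above all R1881 libraries.

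The lowest of the further genes was HERC5, the ligase that attaches ISG15 to proteins, which fell from 6.95 ± 0.656 CPM (mean ± SD of 10 libraries) to 2.00 ± 0.229 CPM (of 5 libraries), a log2 fold change of -1.58 (SE 0.080, limma adjusted p = 3.77e-13). Of the 9 negative regulators tested, 4 were called higher, 2 lower and 3 not called. That is 44.4% higher and 22.2% lower, against 29.8% and 32.7% of all genes. The 2 called lower were PIAS1 and PTPN1. PIAS1, a SUMO ligase that restrains STAT factors, fell from 105 ± 7.36 to 56.8 ± 4.02 CPM (log2 fold change -0.89), and the phosphatase PTPN1 from 72.6 ± 2.20 to 44.1 ± 2.29 CPM (-0.71). Annotated PIAS1 exons overlap those of CALML4 on the other strand over 3261 bases. RSAD2, the antiviral enzyme viperin, was below the filter on low values, at 0.0677 to 0.495 CPM with R1881 and at 0.884, 0.977, 0.819, 1.17 and 0.235 CPM with R1881 + enzalutamide.

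**Figure D5:**
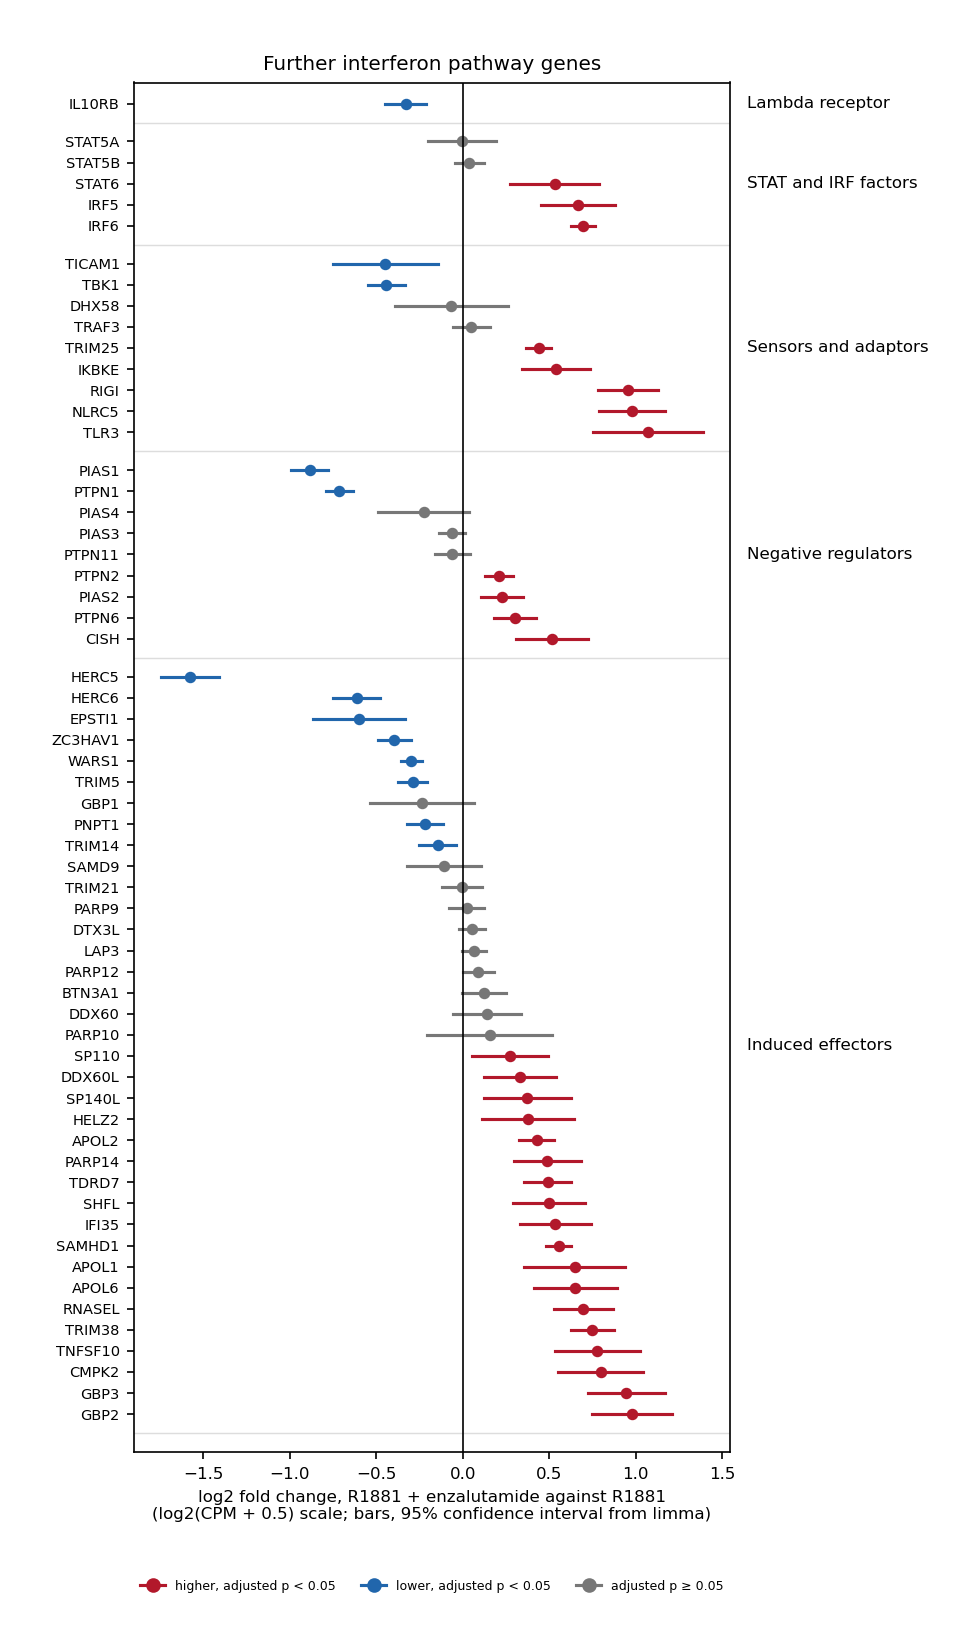
Log2 fold change of 60 of the 61 further interferon pathway genes between R1881 + enzalutamide (n = 5) and R1881 (n = 10) with 95% confidence intervals from limma, grouped by role. The genes span -1.58 (HERC5) to 1.07 (TLR3).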

How the data were processed

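Single-end reads of polyadenylated RNA (stranded library kit) were, per the labels and the methods, processed by the authors with bcl2fastq 2.17, STAR on GRCh38 and featureCounts, and deposited as a normalized signal per gene and library (CPM). Column sums of 1053406 to 1078567 with R1881 and of 985580 to 1008992 with R1881 + enzalutamide show rescaled library sizes. These sums did not overlap between the treatments. The sources used here do not give the scaling rule, annotation, strand setting or gene filter. Divided by what 1 read is worth, 100% of the values came out whole (within 0.01 reads), which gave back the counts, with 15830745 to 25416052 reads per library. All 55 pairs of libraries of a treatment differed by more than sampling noise (chi-square of 1.63 or more per degree of freedom).

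Genes with a mean of at least 0.5 CPM were tested with limma 3.58.1 in R 4.3.3 (mean-variance trend, log2(CPM + 0.5), treatment as the only term). edgeR 4.0.16 (quasi-likelihood) and DESeq2 1.42.0 on recovered reads, other pseudocounts, filters and scalings, GC trend removal (80.2% of tested genes), a replicate block, each R1881 run of numbers alone and each library left out were alternatives. The limma step was checked on simulated counts. Members and lists were chosen with earlier results of these data known. Named with values are members called at 1.5-fold or more, receptors, kinases, STAT, IRF, IFIT, OAS and IFITM members, and of the further list the 3 highest and 3 lowest called genes with a mean of at least 1 CPM and RIGI. A gene of the further list is counted but not reported here. The other members were named to account for the whole list, and USP41, RSAD2 and CALML4 were named after their values were seen. Positions and transcript lengths are from GENCODE v44. Few libraries, and counting error at low read numbers, limit the precision.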

Additional observations from a re-analysis of the deposited data

Results flagged for a closer look

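Over 76 groups of 5 or 10 libraries of 1 gene, 6 had a library set apart from the others by Dixon's test, where chance gives about 3.8. STAT2 was at 107 CPM in R1881 + enzalutamide replicate 1 (next 96.6 CPM), and OASL at 1.07 CPM in the same library (next 1.80 CPM). OAS1 was at 2.44 CPM in R1881 replicate 2 (next 1.79 CPM, 36 reads), and MX1 at 2.84 CPM in the same library (next 2.34 CPM, 42 reads). MX1 was at 4.63 CPM in R1881 + enzalutamide replicate 4 (next 3.61 CPM), and LGALS3BP at 34.9 CPM in R1881 replicate 6 (next 28.8 CPM).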

How the results depend on the processing

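Over 29 alternatives, 16 of the 27 genes called kept their call and direction in each, and 8 of the 11 not called were called in none. Called genes were 24 with library totals set to 1000000 (5 lower) and 7 with a change of at least 1.5-fold required (5 higher, 2 lower). The further genes were 18 under that rule (13 higher, 5 lower). With each library left out, 22 to 27 genes were called (14 to 18 higher, 7 to 10 lower), and 42 to 45 further genes (28 to 31 higher, 13 to 15 lower). Same-numbered replicates of the treatments did not deviate together (r between -0.068 and 0.074). The numbers are not stated to pair the libraries, and this check gave no sign of pairing but cannot exclude it. With a replicate block over replicates 1 to 5, 23 genes were called (14 higher, 9 lower), and 22 without the block in the same libraries, an alternative added after the data were seen, with 44 further genes in both. Genes whose sign turned were not called in either setting, and their log2 fold changes follow. TYK2 was at 0.068 with library totals set to 1000000, 0.009 with edgeR, 0.015 with the GC trend removed, 0.096 against the R1881 libraries 51 to 55 alone, and between -0.093 and 0.028 with a library left out. IRF7 was at 0.057 with these totals, 0.203 against libraries 51 to 55, and between -0.176 and 0.137 with a library left out. IFNAR2 was at 0.010 with these totals. IFITM2 was at -0.051 with the replicate block and at -0.051 without it over those libraries, -0.087 against libraries 71 to 75, and between -0.025 and 0.082 with a library left out. ISG15 was at -0.145 against libraries 71 to 75 and between -0.015 and 0.212 with a library left out. The causes were not tested. Genes with under 50 reads in some library, among them IFITM1, IFIT3 and OAS1, are limited by depth.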
